A study of Homo sapiens with 26 samples.

Results

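The chaperonin and heat shock protein genes were the genes whose symbol in the deposited count tables begins with HSPA, HSPB, HSPD, HSPE or HSPH and a digit, or with HSP90, together with CCT2 to CCT8 and TCP1, with no hyphen in the symbol. The rule uses names alone and took 43 of 26485 genes. RefSeq lists 38 of them as genes that are not pseudogenes. These are 10 TRiC/CCT genes, 2 genes of the HSP60 and HSP10 chaperonin, 3 HSP90 genes, 12 HSP70 genes, 3 HSP110 genes and 8 small heat shock protein genes. The other 5 (CCT6P1, CCT6P3, HSP90AB4P, HSP90B2P and HSPA7) are pseudogenes.

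RNA sequencing covered KELLY cells, which are an established line from a MYCN-amplified human neuroblastoma and in which RUNX1T1 was to be lowered by a hairpin RNA from a doxycycline-inducible lentiviral FH1UTG vector that also carries GFP. Cultured lines carried the empty vector (EV, spelled F1HUTG in the labels) or a hairpin named sh4 or shAMB, and each was given DMSO or doxycycline for 72 hours, with 3 replicates in each of 6 groups. Of the 8 xenografts, 4 labelled wild type came from mice on control food, and 4 labelled RUNX1T1 KO came from mice on doxycycline food. All animals were female NOD SCID gamma mice, and the label KO stands for induced knockdown. The labels call these tumours Kelly PDX and do not say which hairpin they carried, and each hairpin is represented by 1 cultured line. The paper states that its KELLY xenografts carried its shRNA 1, which was built on an Ambion siRNA sequence. Going by the name shAMB, the xenografts may share their hairpin with that line. The column headings of the culture table read Neg and Pos. They were taken to mean without and with doxycycline from the words alone, so the direction of every culture comparison rests on that reading.

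Chaperones hold newly made or damaged proteins until they fold. HSP70 proteins bind short exposed stretches with the help of J-domain partners and nucleotide exchange factors, a role the HSP110 proteins fill, and HSP90 proteins act later on kinases, receptors and transcription factors. TRiC/CCT is a ring chaperonin of the cytosol that folds actin and tubulin, HSPD1 and HSPE1 form the chaperonin of the mitochondrial matrix, and HSPA5 and HSP90B1 serve the endoplasmic reticulum (ER). Heat shock factors act on many of these genes through repeats of the element GAA and its complement TTC, and the ER pair answers to the unfolded protein response.

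The 7 promoters below are shown because they belong to the HSP90, HSP70 and HSP60/HSP10 genes on which the later comparisons turn. Each is the 300-base window, from 250 bases before a transcription start, of RefSeq GRCh38.p14, written 5′ to 3′ along the gene. HSP90AA1 and HSPD1 have 2 such windows and HSP90AB1 has 3, and the window shown is the one that holds the element, chosen for that match. Their other windows held no heat shock element. Capitals mark heat shock elements of 3 units (GAANNTTCNNGAA or TTCNNGAANNTTC) in the first 4, the 2-unit search in HSPE1, where nothing matched, and the ER stress element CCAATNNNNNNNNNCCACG in the last 2. Both strands were searched.
HSP90AA1, chr14:102086995-102087294, minus strand: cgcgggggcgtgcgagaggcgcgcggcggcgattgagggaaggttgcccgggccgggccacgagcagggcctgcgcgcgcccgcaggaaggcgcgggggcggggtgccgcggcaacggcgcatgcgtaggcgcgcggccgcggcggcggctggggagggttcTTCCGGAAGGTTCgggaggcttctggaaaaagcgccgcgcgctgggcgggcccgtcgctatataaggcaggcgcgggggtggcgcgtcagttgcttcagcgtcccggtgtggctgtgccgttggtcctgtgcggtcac
HSP90AB1, chr6:44247693-44247992, plus strand: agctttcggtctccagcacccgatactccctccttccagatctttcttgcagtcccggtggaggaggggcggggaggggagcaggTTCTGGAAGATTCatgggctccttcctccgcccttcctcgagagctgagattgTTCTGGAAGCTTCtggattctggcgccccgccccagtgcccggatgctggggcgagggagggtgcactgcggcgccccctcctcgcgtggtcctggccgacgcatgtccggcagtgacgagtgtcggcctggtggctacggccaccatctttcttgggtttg
HSPA8, chr11:123062087-123062386, minus strand: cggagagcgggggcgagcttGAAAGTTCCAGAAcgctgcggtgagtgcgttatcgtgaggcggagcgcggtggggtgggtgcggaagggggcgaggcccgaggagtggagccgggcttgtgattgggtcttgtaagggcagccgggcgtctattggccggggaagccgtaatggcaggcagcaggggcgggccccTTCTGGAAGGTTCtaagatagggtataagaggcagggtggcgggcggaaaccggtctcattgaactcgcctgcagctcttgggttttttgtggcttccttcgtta
HSPD1, chr2:197499791-197500090, minus strand: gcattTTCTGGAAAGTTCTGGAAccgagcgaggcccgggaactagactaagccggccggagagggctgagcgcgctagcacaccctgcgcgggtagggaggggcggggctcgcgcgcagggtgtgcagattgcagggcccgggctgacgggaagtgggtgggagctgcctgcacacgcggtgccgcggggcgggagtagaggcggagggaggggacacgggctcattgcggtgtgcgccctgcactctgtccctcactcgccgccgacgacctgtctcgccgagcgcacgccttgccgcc
HSPE1, chr2:197500129-197500428, plus strand: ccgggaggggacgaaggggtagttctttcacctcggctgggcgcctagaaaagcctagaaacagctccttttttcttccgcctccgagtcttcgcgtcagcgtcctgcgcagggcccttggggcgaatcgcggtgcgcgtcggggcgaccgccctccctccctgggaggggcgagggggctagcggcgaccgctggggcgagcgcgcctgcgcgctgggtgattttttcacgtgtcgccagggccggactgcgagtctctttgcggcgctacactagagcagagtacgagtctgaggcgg
HSPA5, chr9:125241294-125241593, minus strand: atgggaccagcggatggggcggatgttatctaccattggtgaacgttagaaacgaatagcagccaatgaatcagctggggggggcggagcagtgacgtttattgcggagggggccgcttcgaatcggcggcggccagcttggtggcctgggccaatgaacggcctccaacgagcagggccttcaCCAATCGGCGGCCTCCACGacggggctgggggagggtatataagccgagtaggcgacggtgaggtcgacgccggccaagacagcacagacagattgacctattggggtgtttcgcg
HSP90B1, chr12:103930160-103930459, plus strand: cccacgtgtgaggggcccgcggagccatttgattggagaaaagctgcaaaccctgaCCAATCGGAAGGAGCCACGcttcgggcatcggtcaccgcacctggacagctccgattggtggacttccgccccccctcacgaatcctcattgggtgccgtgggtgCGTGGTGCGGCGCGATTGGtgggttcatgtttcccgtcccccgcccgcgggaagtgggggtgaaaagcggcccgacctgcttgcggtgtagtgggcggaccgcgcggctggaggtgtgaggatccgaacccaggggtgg
Heat shock elements of 3 units were found in windows of 5 member genes (HSP90AA1, HSP90AB1, HSPA6, HSPA8 and HSPD1), and 0.490% of the 35116 windows of all genes held one. The ER stress element was found for 2 members, HSPA5 and HSP90B1, against 27 windows, or 0.0769%, of all. The shorter heat shock element of 2 units (GAANNTTC or TTCNNGAA), which every 3-unit match contains, was found in 18 of the 42 member windows against 13.5% of all windows. The E-box CACGTG was found in 4 member windows (HSP90B1, HSPA9, HSPD1 and HSPE1) against 7.26%, and CCAAT, which the ER stress element contains, in 15 against 34.6%. The E-box matches of HSPD1 and HSPE1 are the same site, where their windows overlap. That site lies in the HSPD1 window that is not shown. Windows of HSPA1A and HSPA1L also overlap and share their 2-unit element. HSPD1 and HSPE1 lie head to head with 104 bases between them. A match describes letters in these windows and is not evidence of binding.

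Library totals ran from 35115915 to 54736733 counts in culture and from 47346063 to 62378060 in the xenografts. RUNX1T1, the targeted gene, was at 39.3 to 44.1 CPM (counts for each 1e6 counts of the library's tested genes, scaled by its TMM factor) in EV with DMSO and 36.5 to 38.6 with doxycycline. It was at 33.3 to 35.01 and 30.1 to 33.9 CPM in sh4, at 39.9 to 42.0 and 41.3 to 44.1 CPM in shAMB, and at 30.0 to 43.1 and 24.3 to 35.2 CPM in control and KO xenografts. No comparison with doxycycline called it, with log2 changes of -0.16, -0.11, 0.06 and -0.23 in that order (edgeR quasi-likelihood test, adjusted p of 0.672, 0.118, 0.378 and 0.229). With DMSO alone it was lower in sh4 than in EV by a log2 difference of -0.29 (edgeR adjusted p = 0.0144). The libraries of the sh4 line, the shAMB line and all xenografts are therefore named below by their labels only. These counts measure RNA, so whether RUNX1T1 protein fell in these samples was not tested. The paper reports lower RUNX1T1 levels in KELLY cells given doxycycline with each of its hairpins. By immunostaining, it also reports loss of RUNX1T1 in KELLY xenografts at the earlier of its time points. MYCN, a marker of this line, had a group mean of 2128 CPM in shAMB with DMSO and 6316 with doxycycline (log2 change 1.57, SE 0.0802, edgeR adjusted p = 1.802e-10), and of 2595 CPM in control and 7157 in KO xenografts (log2 difference 1.46, SE 0.139, edgeR adjusted p = 3.142e-05). Among other neuroblastoma identity genes, PHOX2A, TH and ISL1 rose and HAND2 fell in shAMB, and ISL1 rose in the xenografts. Erythroid markers reached 0.136 CPM at most, with HBA1, HBA2 and HBB at 0 in the shAMB line and the xenografts. The processing notes name only the human build hg38, so the marker genes given here cannot tell cells of the mouse host from tumour cells. Whether mouse reads entered the xenograft counts was not tested. Control xenograft 2, KO xenograft 1 and the third doxycycline library of sh4 stood apart from their groups in several members, which is given beside the results they touch.

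Per length, the constitutive chaperones led. On the scale of CPM per kilobase, HSPA8, the constitutive HSP70 of the cytosol, and HSP90AB1, the constitutive HSP90, had group means of 1220 and 1399 in EV with DMSO and of 1391 and 883 in control xenografts. HSPD1 and HSP90AA1, the inducible HSP90, followed at 681 and 705 in EV with DMSO. CCT3, a TRiC subunit, was next at 538. The stress-inducible HSP70 genes were low. HSPA1B was at 8.31 in EV with DMSO, and HSPA1A had 0 to 3.04 counts in culture and 1.62 to 21.6 in the xenografts. HSPA1A and HSPA1B share 75.1% of the 50-base words of HSPA1A, so their counts could not be divided with certainty. Culture and xenograft tables were made separately, and levels were tested only within each.

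**Figure D1:**
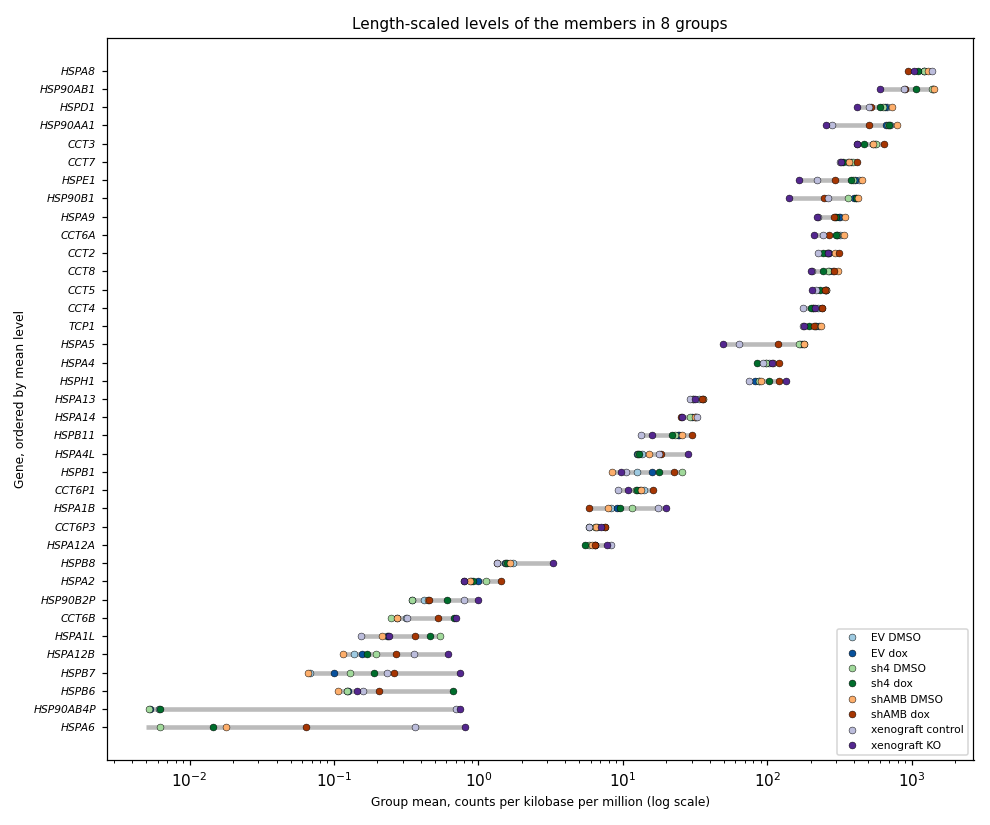
Mean level per length (CPM per kilobase, log axis) of the 37 members with a mean of at least 0.1 over the 8 groups, in each group; group means at 0 are not drawn. HSPA8 and HSP90AB1 stand highest, and most small heat shock protein genes lie orders of magnitude lower.

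A filter on low counts left 35 members for testing in culture and 37 in the xenografts. CCT8L2, HSPA1A, HSPA7, HSPB2, HSPB3 and HSPB9 were tested in neither, and HSPA6 and HSP90AB4P in the xenografts only. A gene is called here when its adjusted p is below 0.05 in edgeR's quasi-likelihood test, with adjustment over all genes tested. In the EV line, which shows what doxycycline did without a hairpin, 0 of 35 members were called, 0 had an unadjusted p under 0.05 and DESeq2 called 0, against 0.0939% of all genes called by edgeR. HSP90AB1 was at 3821, 3772 and 3756 CPM with DMSO and 3778, 3804 and 3816 CPM with doxycycline, so the groups overlapped.

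In the shAMB line, which asks what the hairpin changed, doxycycline lowered the abundant HSP90, HSP60/HSP10 and ER chaperones and raised HSPH1, HSPA4L and several low-expressed members. Of 35 members, 25 were called, 13 higher and 12 lower, which is 71.4%. The share among all genes was 66%, so the number of called members was near the background. The median log2 change was 0.03 over the members and 0.10 over all genes. Libraries did not overlap between DMSO and doxycycline for 26 members, and 73.4% of all genes also separated so. With other size factors (RLE) the split was 9 higher and 13 lower. In these bulk samples fewer cells of a type and less RNA per cell cannot be told apart.

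All 3 HSP90 genes fell. HSP90AB1 was at 3807, 3883 and 3921 CPM with DMSO and 2515, 2468 and 2310 CPM with doxycycline. Every treated library was below every control library, and the log2 change was -0.67 (SE 0.0456, adjusted p = 4.693e-09, edgeR). HSP90AA1 went from 2687, 2730 and 2568 CPM to 1787, 1712 and 1626 CPM. Its groups did not overlap either, and its log2 change was -0.64 (SE 0.0704, edgeR adjusted p = 1.062e-06). HSP90B1, the HSP90 of the ER, went from 1216, 1247 and 1196 CPM to 740, 714 and 676 CPM. This was the deepest fall of the 3, at -0.78 on the log2 scale (SE 0.0642, edgeR adjusted p = 4.092e-08). Summed over the family, the level was 7752 ± 94.9 CPM (SD, n = 3) with DMSO and 4849 ± 218 CPM (SD, n = 3) with doxycycline. HSP90AA1 shares 17.5% and HSP90AB1 18.8% of their 50-base words with other loci, pseudogenes among them, so part of their counts is uncertain.

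**Figure D2:**
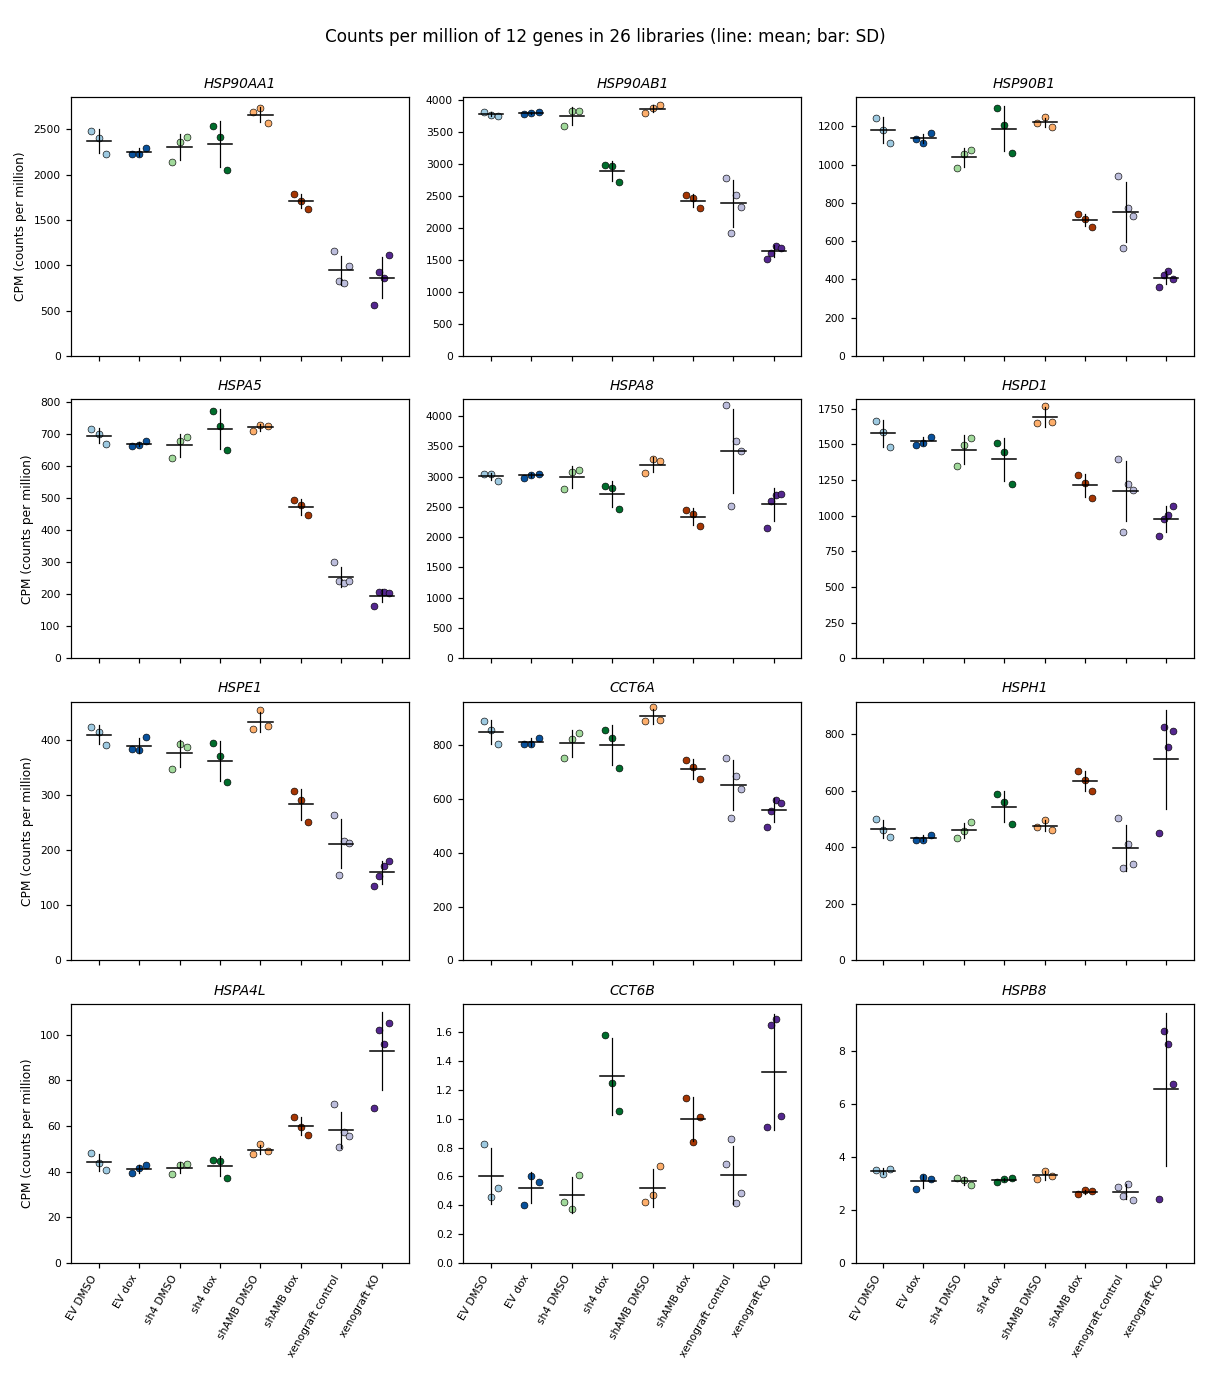
CPM of 12 members in each of the 26 libraries (points), with the mean (line) and SD (bar) of each of the 8 groups. HSP90AB1 lies between 2310 and 2515 CPM in shAMB with doxycycline, below the 3807 to 3921 CPM with DMSO.

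HSPA5, the ER member of the HSP70 family known as BiP, was at 708, 728 and 723 CPM with DMSO and 495, 477 and 445 CPM with doxycycline. All treated libraries were lower, and the log2 change was -0.61 (SE 0.0583, edgeR adjusted p = 2.275e-07). HSPA13, the other ER member, was at 135 to 150 CPM and 133 to 147 CPM, and its log2 change was -0.02 (SE 0.0713, edgeR adjusted p = 0.790). The groups of HSPA13 overlapped.

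HSPD1 went from 1650, 1769 and 1653 CPM to 1284, 1229 and 1126 CPM, and HSPE1, its partner in the mitochondrial chaperonin, from 419, 453 and 425 CPM to 307, 290 and 251 CPM. Neither gene's groups overlapped. The log2 changes were -0.48 (SE 0.0751, edgeR adjusted p = 4.449e-05) for HSPD1 and -0.61 (SE 0.0782, edgeR adjusted p = 5.244e-06) for HSPE1. HSPA9, the mitochondrial HSP70, fell less, from 1219, 1241 and 1163 CPM to 1062, 1028 and 963 CPM, with a log2 change of -0.25 (SE 0.0597, edgeR adjusted p = 0.00190). With GC and length trends removed the changes were -0.32 for HSPD1 and -0.38 for HSPE1, both still called. HSPD1 and HSPE1 share 23.9% and 22.8% of their 50-base words with other loci, and 18 and 26 pseudogenes are annotated for them, so their counts are uncertain to that extent.

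Of 10 HSP70 genes tested, 3 rose and 5 fell, or 80% called against 66% of all genes. HSPA8 went from 3051, 3282 and 3252 CPM to 2441, 2388 and 2182 CPM, without overlap, a log2 change of -0.45 (SE 0.0607, edgeR adjusted p = 9.297e-06). HSPA14, a ribosome-associated HSP70, went from 95.9, 101 and 99.04 CPM to 80.01, 80.07 and 73.8 CPM (log2 change -0.34, SE 0.0464, edgeR adjusted p = 1.09e-05). HSPA8 and HSPA14 share 16.5% and 15.8% of their 50-base words with other loci, so part of their counts is uncertain. For HSPA8, 17 pseudogenes are annotated. HSPA1B, an inducible HSP70, went from 20.9, 19.3 and 19.1 CPM to 13.6, 15.7 and 14.4 CPM (log2 change -0.44, SE 0.106, edgeR adjusted p = 0.00190). The members that rose were low. HSPA2, best known from the testis, was at 1.92 to 2.73 CPM and 3.74 to 4.48 CPM (log2 change 0.73, edgeR adjusted p = 6.119e-04). HSPA1L and HSPA12B rose by 0.77 and 1.18 on the log2 scale, from levels under 0.7 CPM. With GC and length trends removed, HSPA12B changed by 0.06 and was not called, HSPA1B changed by -1.13 and HSPA14 and HSPA9 by -0.17 and -0.10, and HSPA2 by 0.45, all still called.

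Of the 3 HSP110 genes, 2 rose and 0 fell, against 66% of all genes called. HSPH1 was at 472, 498 and 461 CPM with DMSO and 669, 639 and 598 CPM with doxycycline. Each treated library was above each control library, and the log2 change was 0.41 (SE 0.0705, edgeR adjusted p = 9.671e-05). HSPA4L went from 47.9, 51.9 and 49.2 CPM to 63.9, 59.8 and 56.2 CPM, a log2 change of 0.27 (SE 0.0793, edgeR adjusted p = 0.00704) that missed the threshold with RLE size factors and with DESeq2 (0.0615 and 0.0578). HSPA4 was at 357 to 389 CPM and 388 to 429 CPM, with a log2 change of 0.13 (95% interval -0.01 to 0.28) that was not called.

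The 8 canonical TRiC subunits build the ring together, and their summed level was 5996 ± 98.4 CPM (SD, n = 3) with DMSO and 6055 ± 283 CPM (SD, n = 3) with doxycycline, although 2 subunits rose and 1 fell. CCT3 went from 1128, 1102 and 1167 CPM to 1358, 1398 and 1301 CPM, without overlap (log2 change 0.26, SE 0.0381, edgeR adjusted p = 2.605e-05). CCT7 went from 703, 690 and 752 CPM to 810, 843 and 777 CPM (log2 change 0.18, SE 0.0466, edgeR adjusted p = 0.00315). That change was 0.11 with an edgeR adjusted p of 0.0509 with RLE size factors, and the shAMB effect on CCT7 was not called against that of EV. CCT6A fell from 887, 938 and 894 CPM to 742, 719 and 671 CPM (log2 change -0.35, SE 0.0645, edgeR adjusted p = 1.985e-04, and -0.19, still called, with GC and length trends removed). Of the summed length-scaled level of the 8 subunits, CCT6A made up 13.2% ± 0.316 (SD, n = 3) and then 10.1% ± 0.145 (SD, n = 3), and CCT3 20.8% ± 0.673 (SD, n = 3) and then 24.3% ± 0.513 (SD, n = 3). CCT6B, a paralog of CCT6A best known from the testis, was at 0.419, 0.468 and 0.669 CPM and 1.14, 0.839 and 1.01 CPM, a log2 change of 0.94 (SE 0.267, edgeR adjusted p = 0.00579).

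Of the 5 small heat shock protein genes tested, 4 rose and 1 fell, all at low levels, where 66% of all genes were called. Against the EV effect of doxycycline only 1 of the 5, HSPB7, was called, or 20% against 45.5% of all genes. The calls of HSPB1, HSPB6 and HSPB11, which rose, were each lost under some alternatives. HSPB7, a heart and muscle member, was at 0.0986, 0.182 and 0.294 CPM with DMSO and 0.784, 0.787 and 0.692 CPM with doxycycline. The groups were apart, and the log2 change was 1.98 (SE 0.329, edgeR adjusted p = 7.873e-05). Of 4 skeletal muscle markers, 3 had counts and MYH2 was at 0 in this line, and their sum was 0.0260 to 0.123 CPM and then 0.582 to 0.900 CPM. Their part in the HSPB7 result was not tested. HSPB8, a partner of BAG3, was at 3.15, 3.48 and 3.29 CPM and 2.60, 2.75 and 2.70 CPM (log2 change -0.30, SE 0.0873, edgeR adjusted p = 0.00747). HSPB1, HSPB6 and HSPB11 (the intraflagellar transport gene IFT25) rose by 1.42, 0.95 and 0.22 on the log2 scale, although with GC and length trends removed HSPB6 turned to -0.21 and HSPB1 was at 0.34, neither called. HSPB7 was then at 1.12 and still called. HSPB1 lost its call without DMSO replicate 2 or doxycycline replicate 2 or 3 (adjusted p 0.0502 to 0.0773), and HSPB6 without DMSO replicate 1 or doxycycline replicate 2 (0.0536 to 0.191). HSPB11 lost its call without DMSO replicate 2 or 3 or doxycycline replicate 1 or 2 (0.0506 to 0.142).

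**Figure D3:**
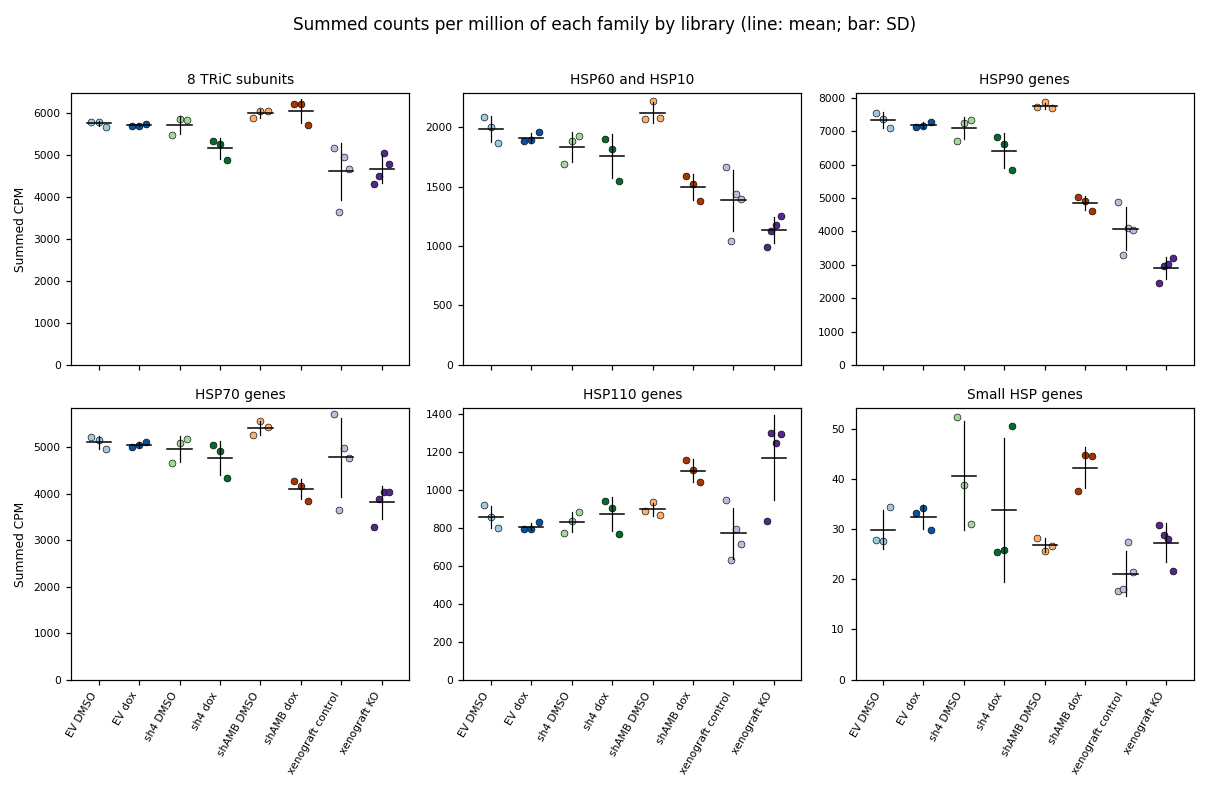
Summed CPM of each family in each library (points), with the group mean (line) and SD (bar). In shAMB the HSP90 sum is 7752 CPM with DMSO and 4849 with doxycycline, and the HSP110 sum is 899 and 1104 CPM.

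In the sh4 line, which asks the same with the other hairpin, HSP90AB1, CCT3 and CCT7 were lower with doxycycline and CCT6B and HSPB6 higher. Of 35 members, 13 were called, 7 higher and 6 lower, which is 37.1% against 40.9% of all genes. The median log2 change was -0.06 over the members and 0.00 over all genes, and 9 members had libraries that did not overlap, as did 41.3% of all genes. Removing trends with GC content and gene length gave 6 higher and 18 lower. Of the 13 calls, those of CCT3, CCT6B, CCT7, HSP90AB1 and HSPB6 were kept under every alternative tried. The call of the pseudogene HSP90B2P was not followed under the alternatives.

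HSP90AB1 fell from 3595, 3840 and 3836 CPM with DMSO to 2990, 2975 and 2721 CPM with doxycycline. All treated libraries were below all controls, and the log2 change was -0.38 (SE 0.0455, edgeR adjusted p = 7.343e-06). HSP90AA1 was at 2139 to 2412 CPM and 2054 to 2535 CPM, with a log2 change of 0.02 (95% interval -0.12 to 0.16). HSP90B1 was at 983, 1057 and 1075 CPM with DMSO and 1293, 1208 and 1061 CPM with doxycycline. The third treated library lay among the controls, and the log2 change was 0.19 (SE 0.0638, edgeR adjusted p = 0.0235). The call was lost without DMSO replicate 1, doxycycline replicate 1 or doxycycline replicate 2 (adjusted p 0.0748 to 0.171), and HSPA13 (log2 change 0.22, edgeR adjusted p = 0.0193) lost its call without the same libraries (0.0812 to 0.161). HSPA5 was at 624, 677 and 691 CPM with DMSO and 772, 723 and 649 CPM with doxycycline, and it was not called (log2 change 0.11, 95% interval -0.01 to 0.22, edgeR adjusted p = 0.155). Without doxycycline replicate 3, which lay among its controls, its log2 change was 0.17 (edgeR adjusted p = 0.0144).

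CCT3 fell from 1186, 1232 and 1171 CPM to 987, 970 and 992 CPM, and CCT7 from 748, 768 and 756 CPM to 627, 675 and 649 CPM. Both separated completely, with log2 changes of -0.28 (SE 0.0381, edgeR adjusted p = 2.11e-05) and -0.22 (SE 0.0466, edgeR adjusted p = 0.00131). CCT5 fell by 0.15 on the log2 scale (edgeR adjusted p = 0.0121) and lost its call without DMSO replicate 2 or doxycycline replicate 1 (0.0531 to 0.0544). CCT6A was at 750 to 845 CPM and 716 to 855 CPM, with a log2 change of -0.01 (95% interval -0.14 to 0.11). The sum of the 8 subunits was 5728 ± 212 CPM (SD, n = 3) and 5162 ± 243 CPM (SD, n = 3).

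CCT6B rose from 0.423, 0.374 and 0.612 CPM to 1.58, 1.25 and 1.06 CPM, a log2 change of 1.48 (SE 0.259, edgeR adjusted p = 2.69e-04). HSPB6, a small heat shock protein of muscle also called HSP20, rose from 0.173, 0.197 and 0.171 CPM to 0.850, 0.857 and 1.23 CPM. All treated libraries were above all controls, with a log2 change of 2.41 (SE 0.274, edgeR adjusted p = 3.736e-06). Another gene on the opposite strand covers 38.3% of the exons of HSPB6, and since the use of strand in counting is not stated, its reads could not be assigned with certainty. HSPB1, a widely expressed small heat shock protein also called HSP27, was at 35.3, 21.1 and 13.0 CPM with DMSO and 6.97, 8.06 and 32.7 CPM with doxycycline. Only the third treated library lay in the control range, and HSPB1 was not called with it (log2 change -0.55, 95% interval -1.50 to 0.40, edgeR adjusted p = 0.385), whereas without it the log2 change was -1.62 (edgeR adjusted p = 0.00201). HSPH1 rose by 0.24 on the log2 scale (edgeR adjusted p = 0.0122), or by 0.08 with GC and length trends removed, and lost its call without DMSO replicate 1 or doxycycline replicate 1 or 2 (0.0512 to 0.102). HSPA4 fell by 0.20 (edgeR adjusted p = 0.0404) and lost its call without DMSO replicate 2 or 3 or doxycycline replicate 3 (0.0992 to 0.153). HSPA14 (log2 change 0.14, edgeR adjusted p = 0.0272) and HSPA1B (-0.28, edgeR adjusted p = 0.0387) each lost the call without any of DMSO replicates 1 and 2 and doxycycline replicates 1 and 2 (0.0510 to 0.207 and 0.0806 to 0.165).

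**Figure D4:**
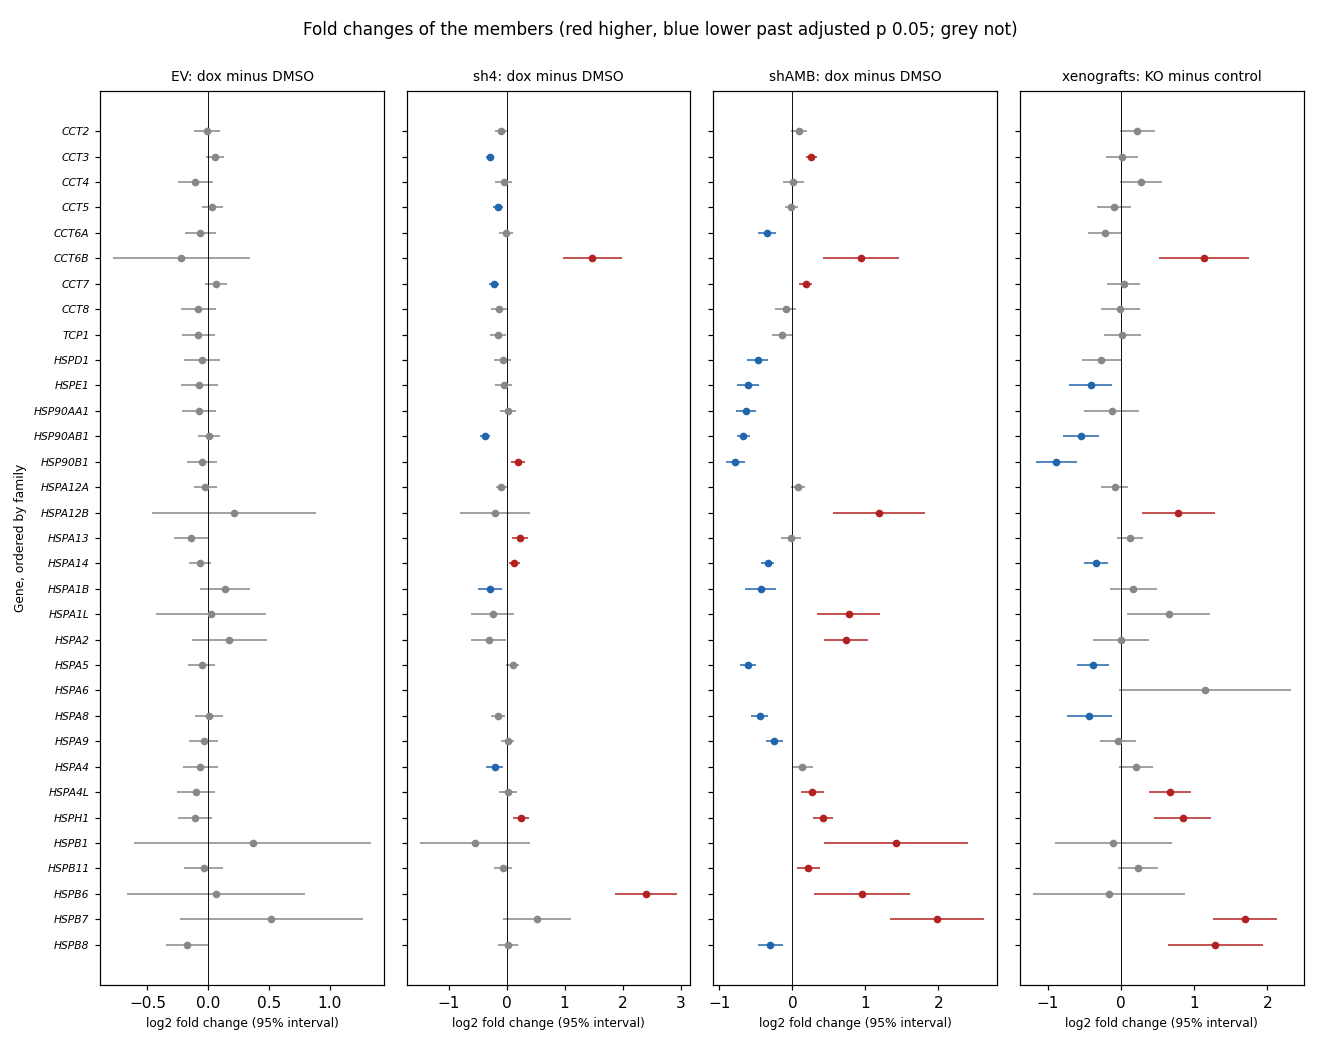
Log2 change (points) with 95% interval (bars) of each tested member that is not a pseudogene, for doxycycline in the 3 lines and for KO against control xenografts, on axes that differ between panels. Red points are higher and blue points lower past an adjusted p of 0.05, and grey points did not pass. HSP90B1 is at -0.78 in shAMB, -0.88 in the xenografts and 0.19 in sh4.

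The effects of doxycycline were then compared between lines as differences of log2 changes in the same fit. The shAMB effect departed from the EV effect for 18 members (8 higher and 10 lower), or 51.4% against 45.5% of all genes, and with RLE size factors the split was 4 and 11. HSP90AB1 differed by -0.68 (SE 0.0643, edgeR adjusted p = 5.59e-07), HSP90B1 by -0.73 (SE 0.0904, edgeR adjusted p = 8.833e-06) and HSPA5 by -0.55 (SE 0.0821, edgeR adjusted p = 5.232e-05). The sh4 effect departed from the EV effect for 12 members (7 and 5), or 34.3% against 32.6% of all genes. HSP90AB1 differed by -0.38 (SE 0.0643, edgeR adjusted p = 3.339e-04). Both comparisons use the same EV libraries.

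Between sh4 and shAMB the effect differed for 23 members, or 65.7% against 60.9% of all genes, 14 of them higher in sh4 and 9 lower. Removing GC and length trends gave 11 and 15. HSP90B1 differed by 0.97 (SE 0.0905, edgeR adjusted p = 2.881e-07), HSPA5 by 0.72 (SE 0.0822, edgeR adjusted p = 2.857e-06) and HSP90AA1 by 0.66 (SE 0.0992, edgeR adjusted p = 4.366e-05). CCT3 and CCT7, which fell in sh4 and rose in shAMB, differed by -0.54 (SE 0.0539, edgeR adjusted p = 6.403e-07) and -0.40 (SE 0.0659, edgeR adjusted p = 1.022e-04). HSP90AB1, which fell in both, fell more in shAMB by 0.30 (SE 0.0643, edgeR adjusted p = 0.00110). With DMSO alone, 2 members differed between sh4 and EV, against 1.12% of all genes. HSPA1L was higher in sh4 by 1.22 on the log2 scale (edgeR adjusted p = 0.00728, and 0.0549 without EV DMSO replicate 1), and HSPA1B by 0.48 (edgeR adjusted p = 0.0343). That of HSPA1B rose to between 0.150 and 0.192 without DMSO replicate 1 or 2 of either line. Between shAMB and EV with DMSO, edgeR called 0 members, against 1.52% of all genes, with 3 at an unadjusted p under 0.05.

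In the xenografts, which carry the comparison into tumours, HSP90AB1, HSP90B1, HSPA5 and HSPA14 were lower in the libraries labelled KO, and HSPH1, HSPA4L, HSPB7 and HSPB8 were higher. Of 37 members, 12 were called, 6 higher and 6 lower, which is 32.4% against 41.1% of all genes. The median log2 difference was 0.04 over the members and 0.02 over all genes. Libraries separated for 8 members, and for 36.7% of all genes. With GC and length trends removed the split was 6 and 9. Fitted without control 2, and without KO 1, in turn, the comparison kept in both fits the calls of HSP90AB1, HSP90B1, HSPA14, HSPA5, HSPA4L, HSPB7, HSPB8, HSPH1 and CCT6B. Without KO 1 it lost those of HSPA8, HSPE1 and HSPA12B (edgeR adjusted p from 0.0719 to 0.0953), and without control 2 it gained those of HSPD1 and CCT6A.

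HSP90B1 was at 941, 564, 772 and 732 CPM in the controls and 363, 426, 442 and 403 CPM in KO. The groups did not overlap, and the log2 difference was -0.88 (SE 0.144, edgeR adjusted p = 7.29e-04). HSP90AB1 was at 2784, 1917, 2514 and 2331 CPM and 1518, 1617, 1724 and 1697 CPM. Control 2 was lowest of its group yet above every KO library, and the log2 difference was -0.54 (SE 0.125, edgeR adjusted p = 0.00537). HSP90AA1 was at 1157, 823, 808 and 989 CPM and 559, 928, 867 and 1110 CPM, with overlap and a log2 difference of -0.13 (95% interval -0.50 to 0.25). HSPA5 was at 300, 240, 235 and 241 CPM and 164, 206, 207 and 204 CPM, without overlap (log2 difference -0.38, SE 0.111, edgeR adjusted p = 0.0183).

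HSPA14 was at 106, 92.6, 101 and 105 CPM in the controls and 72.0, 80.4, 82.3 and 84.1 CPM in KO, without overlap (log2 difference -0.34, SE 0.0827, edgeR adjusted p = 0.00697). HSPA8 was at 4172, 2514, 3586 and 3417 CPM and 2146, 2594, 2701 and 2716 CPM, and control 2 lay among the KO libraries. Its log2 difference was -0.43 (SE 0.156, edgeR adjusted p = 0.0465), and leaving out any 1 library other than control 2 took it past the threshold (0.0514 to 0.0993). HSPE1 was at 263, 155, 216 and 213 CPM and 134, 152, 170 and 181 CPM (log2 difference -0.41, SE 0.151, edgeR adjusted p = 0.0496). Its call was lost without control 1, 3 or 4 or KO 1, 2 or 3 (0.0602 to 0.117). HSPD1 was at 1398, 887, 1220 and 1182 CPM and 854, 976, 1004 and 1068 CPM. It was not called with all libraries (log2 difference -0.26, edgeR adjusted p = 0.151) and was called without control 2 (-0.38, edgeR adjusted p = 0.0190).

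HSPH1 was at 506, 326, 412 and 343 CPM in the controls and 451, 826, 756 and 813 CPM in KO. KO 1 lay within the control range, and the log2 difference was 0.84 (SE 0.198, edgeR adjusted p = 0.00610). HSPA4L was at 69.5, 50.7, 57.2 and 55.8 CPM and 67.8, 102, 96.2 and 105 CPM (log2 difference 0.67, SE 0.145, edgeR adjusted p = 0.00373). Again KO 1 overlapped the controls. HSPA4 was at 255 to 372 CPM and 321 to 396 CPM and was not called (log2 difference 0.21, 95% interval -0.02 to 0.44). The HSP110 sum was 773 ± 134 CPM (SD, n = 4) and 1172 ± 223 CPM (SD, n = 4).

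HSPB7 was at 0.811, 0.610, 0.681 and 0.585 CPM in the controls and 2.32, 2.53, 2.16 and 1.65 CPM in KO. Every KO library was higher, and the log2 difference was 1.69 (SE 0.223, edgeR adjusted p = 1.993e-04). The 4 muscle markers all had counts, and summed to 0.271 to 1.39 CPM and 1.54 to 2.99 CPM, a shift whose part in the result was not tested. HSPB8 was at 2.86, 2.51, 2.99 and 2.38 CPM and 2.42, 8.78, 8.28 and 6.75 CPM (log2 difference 1.29, SE 0.332, edgeR adjusted p = 0.00983). KO 1 was at the control level, and the difference was 1.56 without it (edgeR adjusted p = 5.547e-05). HSPB8 thus rose in the xenografts and fell in shAMB. In EV its mean was 3.46 CPM with DMSO and 3.07 with doxycycline, a fall that was not called. The shAMB effect on HSPB8 was not called against the EV effect.

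With all libraries, edgeR called 0 of the 8 canonical TRiC subunits in the xenografts, with 0 at an unadjusted p under 0.05, and their sum was 4617 ± 678 CPM (SD, n = 4) and 4664 ± 328 CPM (SD, n = 4). CCT6A was at 751, 530, 683 and 636 CPM and 496, 555, 597 and 585 CPM (log2 difference -0.22, 95% interval -0.45 to 0.01), and was called without control 2 (-0.31, edgeR adjusted p = 0.0313). Its share of the length-scaled sum was 12.3% ± 0.426 (SD, n = 4) and 10.4% ± 0.318 (SD, n = 4). CCT6B was at 0.683, 0.858, 0.412 and 0.485 CPM and 0.941, 1.65, 1.70 and 1.02 CPM, a log2 difference of 1.13 (SE 0.314, edgeR adjusted p = 0.0142) that lost its call without KO 2 or 3 (0.0501 to 0.0539). HSPA12B, an atypical HSP70 of endothelium, differed by 0.79 (SE 0.254, edgeR adjusted p = 0.0289). The call was lost without control 1 or 4 or KO 1, 2 or 3 (0.0643 to 0.0854). All 5 endothelial markers had counts, summing to 1.11 to 1.67 CPM and 1.22 to 1.92 CPM, and their part in the result was not tested. Counted as human genes, they cannot tell endothelium of the mouse host from tumour cells.

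Set side by side, shAMB and the xenografts, which share no libraries, gave calls in the same direction for 11 members, 5 higher in both (CCT6B, HSPA12B, HSPA4L, HSPB7 and HSPH1) and 6 lower in both (HSP90AB1, HSP90B1, HSPA14, HSPA5, HSPA8 and HSPE1), and in opposite directions for HSPB8. Of the 35 members tested in both, 31.4% were called in the same direction, against 33.9% of the 14670 genes tested in both. The shared calls were thus near the background and single out no member. The shAMB line and the xenografts may also carry the same hairpin, as given above. In opposite directions the shares were 2.86% and 0.668%, and that of the members rests on HSPB8 alone, whose shAMB effect was not called against that of EV. Between sh4 and shAMB, 3 members rose in both, 2 fell in both, and 4 were called in opposite directions (HSP90B1, HSPA14, CCT3 and CCT7). That is 14.3% in the same direction against 15.9% of all genes, and 11.4% in opposite directions against 12.3%. The sh4 calls of HSP90B1 and HSPA14 were lost with RLE size factors (edgeR adjusted p of 0.0538 and 0.0724). With only the compared groups in the fit they were lost too (edgeR adjusted p of 0.138 and 0.137).

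The partners of these chaperones were followed as lists, whose counts of calls are read against the shares of all genes called, 66% (shAMB), 40.9% (sh4) and 41.1% (xenografts). Of 5 heat shock factor and regulator genes tested, 2 rose and 1 fell in shAMB (60% called), 1 and 0 in sh4 (20%), and 2 and 2 in the xenografts (80%). HSF1, the main heat shock factor, was lower in KO xenografts by a log2 difference of -0.81 (SE 0.224, edgeR adjusted p = 0.0138) and was not called in sh4 (-0.35) or shAMB (-0.16). HSF2 was not called in any of the 3 comparisons. HSF4, a factor of the lens, rose by 2.27 in shAMB (SE 0.347, edgeR adjusted p = 3.432e-05) and 1.88 in the xenografts (SE 0.296, edgeR adjusted p = 5.98e-04), with -0.74 in sh4 not called.

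Of 44 J-domain proteins tested, 29 (65.9%) were called in shAMB (16 higher and 13 lower), 23 (52.3%) in sh4 (17 and 6) and 16 (36.4%) in the xenografts (10 and 6), shares near those of all genes in shAMB and the xenografts. DNAJB9, an ER J-domain protein that acts with HSPA5, rose by 1.22 (sh4), 1.12 (shAMB) and 0.91 (xenografts) on the log2 scale (edgeR adjusted p of 1.774e-08, 1.716e-08 and 1.807e-04). DNAJC3, another ER J-domain protein, rose by 0.39 in sh4 and changed by -1.01 in shAMB and -0.88 in the xenografts. Of 21 ER folding and unfolded protein response genes, 3 rose and 10 fell in shAMB (61.9% called), 7 rose and 3 fell in sh4 (47.6%), and 1 rose and 9 fell in the xenografts (47.6%). MANF, a secreted ER stress factor, had log2 changes of 0.46 in sh4, -0.44 in shAMB and -0.52 in KO tumours, all called.

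Of 14 HSP70 nucleotide exchange and other cofactor genes, 3 rose and 6 fell in shAMB (64.3% called), 3 and 5 in sh4 (57.1%), and 0 and 6 in the xenografts (42.9%). BAG2, an exchange factor that inhibits the ligase CHIP, had log2 changes of -1.54 in shAMB (edgeR adjusted p = 1.097e-10) and -1.03 in the xenografts (edgeR adjusted p = 1.179e-04). Of 28 HSP90 co-chaperones, 7 rose and 9 fell in shAMB (57.1%), 4 and 14 in sh4 (64.3%), and 2 and 7 in the xenografts (32.1%). TTC4 had log2 changes of -1.14 and -0.94 in shAMB and the xenografts, and FKBP5, an immunophilin of steroid receptor complexes, -0.57 and -0.63, all called. CDC37L1 rose by 0.51 in shAMB and 0.73 in the xenografts, both called.

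Of 14 prefoldin and chaperonin cofactor genes, 3 rose and 7 fell in shAMB (71.4%), 1 and 5 in sh4 (42.9%), and 1 and 3 in the xenografts (28.6%). PFDN2, a prefoldin subunit that hands actin and tubulin to TRiC, had log2 changes of -0.78 in shAMB and -0.78 in the xenografts, both called. TBCC went the other way, by 0.96 in shAMB and 0.82 in the xenografts, both called. Of 21 actin and tubulin genes, the main TRiC clients, 7 rose and 5 fell in shAMB (57.1%) and 3 and 10 in sh4 (61.9%), and of 20 in the xenografts 3 and 6 (45%). TUBA1B, an abundant alpha-tubulin, had log2 changes of -0.51 (sh4), -1.10 (shAMB) and -1.51 (xenografts), all called. By contrast, TUBA8, TUBB2A and TUBA4A rose by 1.87, 1.40 and 1.24 in shAMB and by 0.73, 0.72 and 0.89 in the xenografts, all called. Of 17 mitochondrial protease and import genes, 5 rose and 6 fell in shAMB (64.7%), 0 and 6 in sh4 (35.3%), and 1 and 7 in the xenografts (47.1%). TRAP1, the mitochondrial HSP90, which the name rule did not take, had log2 changes of -0.52, -0.94 and -1.49 in sh4, shAMB and the xenografts, all called. Of 8 other stress-induced and ATP-independent chaperones, 2 rose and 2 fell in shAMB (50%), 0 and 1 in sh4, and 1 and 5 in the xenografts (75%).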

How the data were processed

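The authors deposited RSEM expected counts per gene in one table for 18 cultured libraries and one for 8 xenografts. The submitters' processing notes name STAR, SAMtools and RSEM with build hg38, without versions, and the use of strand in counting is not given in the sources used here. The labels name both polyA RNA and a total RNA kit, which remained unsettled.

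Here the deposited expected counts, rounded to integers, were tested with edgeR 4.0.16 in R 4.3.3 (filterByExpr, TMM, quasi-likelihood test, two-sided, threshold 0.05 after Benjamini-Hochberg adjustment across 14905 genes for culture or 15960 for xenografts). Culture libraries shared 1 fit, and xenografts had their own. The 9 comparisons and the alternatives (RLE size factors, no filter, DESeq2 1.42.0, replicate block, GC and length trends removed, only the compared groups, each library left out) are described under the results. Intervals are 95% normal intervals from the SE. CPM used each library's total over the tested genes times its TMM factor (0.974 to 1.07 in culture, 0.936 to 1.09 in the xenografts). The code was tested on simulated data. Replicates may share a culture, so p-values measure the spread between these samples only. No same-group libraries agreed within sampling noise (chi-square over degrees of freedom at least 1.80).

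Members and lists were chosen with earlier results of these data known. A marker gene is not reported here. Members that are not pseudogenes may be named. From each companion list the 4 genes with the largest log2 change past the threshold in shAMB and the xenografts may be named, and HSF1, HSF2 and HSF4 always. Sequences are from RefSeq GRCh38.p14 (33 members matched a promoter, in 42 windows).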

Additional observations from a re-analysis of the deposited data

Results flagged for a closer look

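In the xenografts, 66 groups of 4 values, 1 for each member and condition, were searched for a library far from the rest (Dixon's ratio at its 95% critical value), and 7 held one, where chance gives about 1 in 20. Control 2 was low for CCT5 (605 CPM, the others 827 to 833), CCT7 (487 CPM, the others 654 to 661) and HSPB11 (6.37 CPM, the others 8.43 to 8.83). Control 1 was high for HSPA12A (51.6 CPM, the others 45.4 to 46.0) and HSPA5 (300.3 CPM, the others 235 to 241). Control 3 was high for HSPA1B (57.8 CPM, the others 38.8 to 41.5), and KO 1 was low for HSPA5 (164 CPM, the others 204 to 207).

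The effect of doxycycline differed between lines, by a test of the difference in the edgeR fit, for 12 members between sh4 and EV, 18 between shAMB and EV and 23 between sh4 and shAMB. The differences of at least 1 on the log2 scale between sh4 and EV were those of CCT6B (1.70, edgeR adjusted p = 0.00357) and HSPB6 (2.35, edgeR adjusted p = 0.00150). Between shAMB and EV they were those of CCT6B (1.16, edgeR adjusted p = 0.0244) and HSPB7 (1.46, edgeR adjusted p = 0.0317). Both calls were lost without some single libraries: CCT6B without EV DMSO 1, EV doxycycline 1, shAMB DMSO 1 or 2 or shAMB doxycycline 1 (0.0533 to 0.0946), and HSPB7 without EV DMSO 1 or 3, EV doxycycline 1 or 2, shAMB DMSO 1 or 2 or shAMB doxycycline 2 (0.0533 to 0.0987).

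Between sh4 and shAMB, members called in opposite directions differed by -0.54 (CCT3), -0.40 (CCT7), 0.97 (HSP90B1) and 0.48 (HSPA14). Differences of at least 1 were those of HSPA12B (-1.39), HSPA1L (-1.01), HSPA2 (-1.04), HSPB1 (-1.97), HSPB6 (1.46) and HSPB7 (-1.45), with edgeR adjusted p from 7.729e-04 for HSPA2 to 0.0235 for HSPB1. With GC and length trends removed, HSPA12B turned to 0.06 (adjusted p = 0.920), and HSPB7 and HSPB1 were at -0.39 and -0.52, none called. Without sh4 doxycycline replicate 3 the difference of HSPB1 was -3.01 (edgeR adjusted p = 7.461e-05). The difference of HSPB1 was not called without sh4 DMSO 1, sh4 doxycycline 1 or 2, shAMB DMSO 2 or shAMB doxycycline 3 (0.0514 to 0.0730), nor that of HSPB6 without shAMB DMSO 2 or 3 (0.0530 to 0.0953).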

How the results depend on the processing

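Of the 25 calls in shAMB, 19 were not lost under any alternative tried. These include the pseudogene CCT6P1, whose own call was not followed under the alternatives. The count of calls ranged from 22 to 27. The 13 calls in sh4 became 24 (6 higher and 18 lower) with GC content and gene length trends removed and 6 with only the compared groups in the fit, and ran from 8 (without sh4 doxycycline replicate 2) to 14 with each library left out. The 12 differences between sh4 and EV became 19 with those trends removed and ran from 7 (without sh4 DMSO replicate 1) to 15 with each library left out. With DMSO alone, the 2 members that differed between sh4 and EV became 1 under the replicate block and 0 with only the compared groups, and 0 to 2 with each library left out (0 without EV DMSO replicate 1). The 0 between shAMB and EV became 2 with trends removed. Counts stayed within 14 to 22 for shAMB against EV (13 to 17 with each library left out), 20 to 26 for sh4 against shAMB (19 to 25) and 8 to 15 in the xenografts (8 to 14), where 7 of 12 calls were kept throughout.

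Removing GC and length trends, which moved the median log2 change of all genes in shAMB from 0.10 to -0.05, turned the direction of some changes. These were, in sh4, HSP90AA1 (-0.0933), HSPA4L (-0.0947) and HSPA9 (-0.0953), in shAMB, CCT8 (0.11), HSPA13 (0.15) and HSPB6 (-0.21), and for sh4 against EV, CCT4 (-0.11), CCT6A (-0.15), HSPA14 (-0.0055) and HSPA9 (-0.12). The others were CCT8 for shAMB against EV (0.11), HSPA12B (0.0596) and HSPA13 (-0.0530) for sh4 against shAMB, and HSPH1 for sh4 against EV with DMSO (0.12). The cause was not tested.

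Same-numbered replicates did not deviate together (correlations from -0.60 to 0.37), so the numbers were not read as pairs. The replicate block gave 13 calls in sh4, 25 in shAMB, 11 for sh4 against EV, 17 for shAMB against EV, 24 for sh4 against shAMB and 8 in the xenografts (5 higher and 3 lower, without HSPA5, HSPA8, HSPE1 and HSPA12B, at adjusted p from 0.0634 to 0.118), 1 for sh4 and 0 for shAMB against EV with DMSO. Members with few counts, such as HSPB6 and CCT6B, had the widest errors, and intervals cover the spread between these libraries only.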

Other observations

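HSP90AB4P, a pseudogene, had 0 to 3 counts in the 18 cultured libraries and 81 to 166 in the 8 xenografts. HSPA6, the strictly inducible HSP70 whose promoter window holds a heat shock element of 3 units, had 0 to 9 counts in culture, with 5, 9 and 8 in shAMB with doxycycline. In the xenografts it had 82, 2, 28 and 66.7 counts in the controls and 98, 130, 119 and 91 in KO. Its log2 difference was 1.15 (SE 0.598, edgeR adjusted p = 0.151), and control 2 was again the lowest. The 2 tables were made separately, so no test joins them, and a part of mouse reads in the xenograft counts was not tested.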
